A study of Arabidopsis thaliana with 4 samples.

Results

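The histone genes of Arabidopsis thaliana were examined in RNA from rosette cores. The set holds 44 loci that were listed by identifier: 8 encoding H4, 10 encoding H3 or an H3 variant, 13 encoding H2A or an H2A variant, 10 encoding H2B and 3 encoding the linker histone H1. They are 44 of 32678 loci in the table, and all 44 were found. For 33 of them the table has 1 transcript model and for 11 it has several. Among nuclear protein-coding loci, those with several models held very few counts. Their median mean count was 0.5 against 55.5 for loci with 1 model. Levels are therefore given for the 33, and the other 11 are listed by their summed counts only. All 4 samples were untreated Col-0 plants, 31 days old, grown under 16 h of light per day at 22 °C and 100 µE after the seeds had a cold treatment at 4 °C. Each sample is the central part of a rosette, which contains the shoot apex, young leaves and leaf bases. Ribosomal RNA was depleted and the libraries were strand-specific. Library totals ran from 5639486 to 7692788 counts. No label says whether the cores came from separate plants, so the p-values below describe how these 4 samples differ, and that difference may be technical. There is 1 group and no treated sample.

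Nucleosomes wrap DNA around an octamer of H2A, H2B, H3 and H4, and H1 binds the linker DNA between them. In plants, as in animals, replication-coupled histones such as H3.1 are made mainly in S phase and placed on new DNA behind the replication fork. Replacement histones such as H3.3 and H2A.Z are made through the cell cycle and exchanged into chromatin outside replication. In Arabidopsis each replication-coupled histone is encoded by several dispersed genes, and their messages, unlike those of animals, are polyadenylated.

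The markers of the labelled tissue were present. SHOOT MERISTEMLESS (STM), a homeobox gene of the shoot meristem, had 194, 317, 95.7 and 162 CPM (counts scaled to 1000000 per library) in cores 1 to 4. It was highest in core 2 and lowest in core 3. Of the other shoot apex markers, KNAT1 and PDF1 had means of 162 and 997 CPM. CUC2 had a mean of only 4.37 CPM, below the pollen markers ANX1 at 17.3 and AGP6 at 4.79 CPM. LHCB1.3, a light-harvesting gene of green tissue, had a mean of 23403 ± 4422 CPM (SD, n = 4). The sum of all 7 pollen markers ran from 19.3 to 30.5 CPM. Of these, 4 were under 1 CPM in every core, with the sperm gene GEX2 at 0. ANX1, with 11.5, 14.9, 26.5 and 16.2 CPM, AGP6, with 6.01, 5.81, 2.45 and 4.90 CPM, and HAP2, with a mean of 1.42 CPM, made up nearly all of the sum. The sum of 5 seed markers ran from 0.766 to 3.57 CPM, with OLEO2 and SESA4 at 0, and that of 3 root markers from 0.459 to 1.79 CPM, with EXPA7 at 0. In bulk tissue, fewer cells of a type and less RNA per cell cannot be told apart.

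Histone genes were among the more abundant nuclear transcripts. Of the 33 genes with 1 model, 30 had at least 1 CPM in every core, 29 at least 10 CPM and 17 at least 100 CPM. Among all nuclear protein-coding genes with 1 model the corresponding shares were 61.7%, 44.5% and 7.76%. Per kb of exon, the scale on which different genes are compared below, the median of the 33 genes was 129.6 CPM per kb against 4.99 CPM per kb for all such genes. Of the 33, 26 lay above the 90th percentile of all such genes and 17 above the 95th. Together they took 0.507 ± 0.0255% (SD, n = 4) of all counts that fell on loci with 1 model. The members are dispersed over the genome, with 12 on chromosome 1, 6 on chromosome 2, 10 on chromosome 3, 4 on chromosome 4 and 12 on chromosome 5. The closest pairs are HTR4 and HTR5, 42 bases apart, and HTR13 and HTR9, 577 bases apart. On TAIR10.1 the genes that the results turn on most lie at chr5:3472405-3473570 (HTR8, minus strand), chr1:18926811-18927746 (HTA10, plus), chr1:2971571-2972334 (HTR2, minus), chr5:24051474-24052218 (AT5G59690, plus), chr3:19889297-19890251 (HTB6, plus) and chr1:2076504-2077767 (H1.1, minus).

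**Figure D1:**
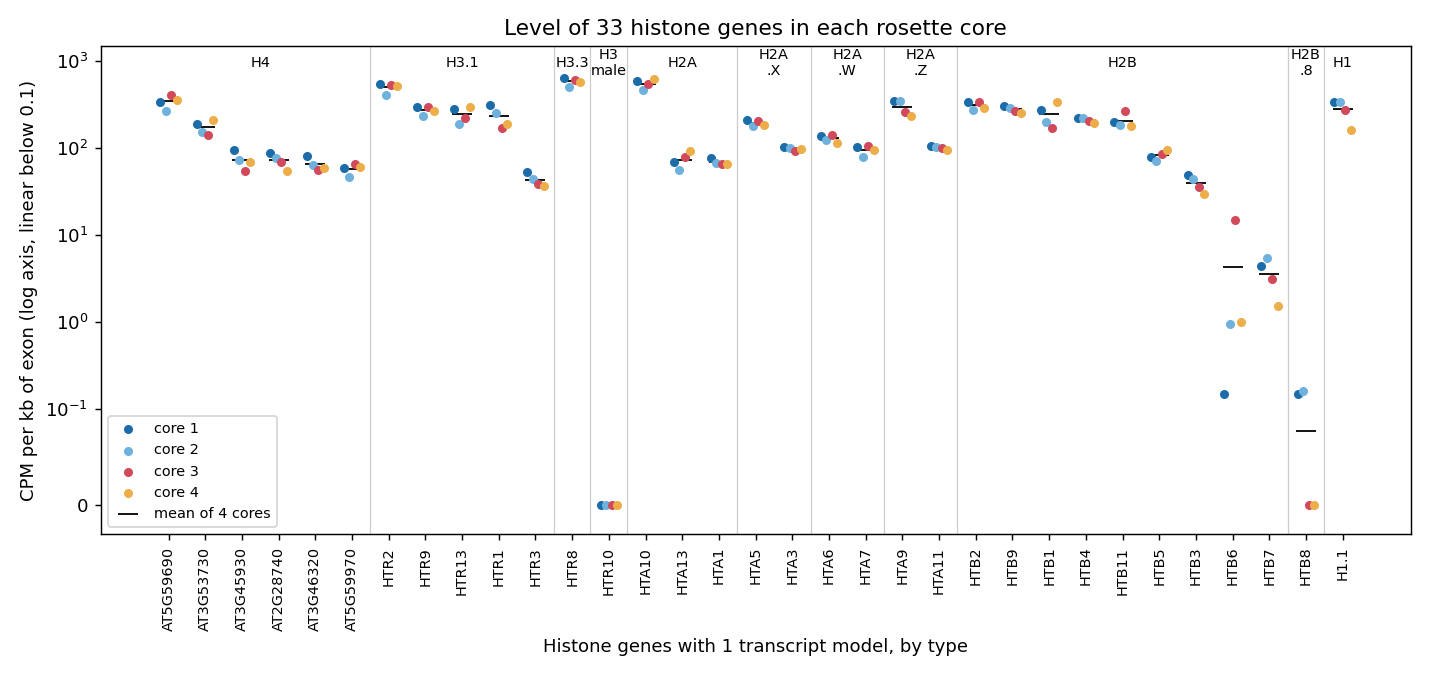
Level of each of the 33 histone genes with 1 transcript model in CPM per kb of exon (vertical log axis, linear below 0.1), grouped by histone type. Points are single cores and bars are means of 4 cores. HTR8, HTA10 and HTR2 lie highest, and HTR10 was at 0 in every core.

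H4, which forms the central tetramer with H3, is encoded by 8 loci whose coding sequences predict 1 identical protein of 102 residues. Their coding sequences were 78.8% to 98.1% identical, so reads can be assigned through silent differences and the untranslated ends. Codons 1 to 20 after the initiator of the 6 loci with 1 model are shown because they show what separates transcripts of the same protein, with capitals where a base differs from the most frequent base of the 6 (at the position where 2 bases are equally frequent, 1 of them is in capitals):
AT5G59690: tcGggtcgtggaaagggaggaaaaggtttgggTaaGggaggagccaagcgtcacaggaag
AT3G53730: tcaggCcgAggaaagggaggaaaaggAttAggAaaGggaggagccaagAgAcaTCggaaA
AT3G45930: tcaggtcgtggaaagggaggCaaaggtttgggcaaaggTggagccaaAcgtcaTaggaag
AT2G28740: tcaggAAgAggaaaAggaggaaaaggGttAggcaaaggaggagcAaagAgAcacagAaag
AT3G46320: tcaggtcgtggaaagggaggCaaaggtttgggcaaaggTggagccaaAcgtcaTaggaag
AT5G59970: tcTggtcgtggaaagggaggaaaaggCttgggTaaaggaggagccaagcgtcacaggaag
AT3G45930 and AT3G46320 are alike over these codons, and they were the 2 H4 loci with 1 model that shared 100-base stretches with each other, being unique over 88.9% and 87.9% of such stretches.

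AT5G59690 was the highest H4 gene, with 253, 201, 307 and 267 CPM in cores 1 to 4. It was lowest in core 2 and highest in core 3. Its mean of 345 ± 58.8 CPM per kb (SD, n = 4) made up 43.8 ± 5.66% of the summed H4 level. AT3G53730 followed with 213, 172, 159 and 238 CPM, or 173 ± 32.1 CPM per kb, and was highest in core 4 and lowest in core 3. The other 4 genes were close together, between 57.8 ± 7.97 CPM per kb for AT5G59970 and 72.7 ± 16.7 CPM per kb for AT3G45930. AT2G28740 at 72.5 ± 13.9 and AT3G46320 at 65.5 ± 11.6 CPM per kb lay between them, and the ranges of all 4 overlapped. Of the H4 loci with several models, AT1G07660 had 0 counts and AT1G07820 had 12 in all 4 cores together.

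H3.1, the replication-coupled H3, is encoded by 5 genes that predict 1 identical protein of 135 residues, and H3.3, the replacement form, by HTR4, HTR5 and HTR8. The H3.1 of HTR2 and the H3.3 of HTR8 differ at 4 positions, 31, 41, 87 and 90, counted without the initiator methionine. Codons 26 to 46, which hold the first 2 of these positions, are shown for both genes because this short stretch separates the 2 forms of H3; capitals mark the 14 of 63 bases that differ:
HTR2: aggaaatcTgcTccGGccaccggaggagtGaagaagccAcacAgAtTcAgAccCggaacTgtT
HTR8: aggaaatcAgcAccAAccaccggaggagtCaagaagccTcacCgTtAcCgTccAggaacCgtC
Positions 31 and 41 lie in the histone tail and at its junction with the folded core, and the H3.1 residue at position 31 is known to be read by the methyltransferases ATXR5 and ATXR6.

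HTR8 (AT5G10980), the H3.3 gene with 1 model, had the highest level of all 33 histone genes per kb. Its values were 523, 419, 503 and 473 CPM in cores 1 to 4, or 586 ± 55.7 CPM per kb (SD, n = 4). HTR2 (AT1G09200) was the highest H3.1 gene, with 419, 308, 407 and 394 CPM, or 500 ± 65.7 CPM per kb. For both genes core 2 was the lowest and core 1 the highest. HTR2 held 38.6 ± 2.93% of the H3.1 level, while HTR9 (AT5G10400) held 21.2%, HTR13 (AT5G10390) 19.0%, HTR1 (AT5G65360) 17.9% and HTR3 (AT3G27360) 3.31%.

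HTR9, HTR13 and HTR1 lay near each other at 274 ± 31.5, 247 ± 49.7 and 232 ± 64.2 CPM per kb, with overlapping ranges over the cores. They did not follow each other from core to core. HTR1 had 224, 185, 122 and 138 CPM, higher in cores 1 and 2 than in cores 3 and 4. HTR13, which lies 577 bases from HTR9 on chromosome 5, had 199, 134, 155 and 207 CPM, with its high values in cores 1 and 4. HTR9 had 234, 183, 235 and 211 CPM and was low in core 2 alone. HTR3 was the lowest H3.1 gene at 42.8 ± 7.14 CPM per kb, and 68.8% of its 100-base stretches were unique, the rest being shared with the neighbouring AT3G27380.

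Of the other H3 loci, HTR10 (AT1G19890), the H3 of male gametes, had 0 counts in all 4 cores. A count of 0 allows up to 3 counts, or 0.419 to 0.565 CPM depending on the core. Summed over their models, HTR4 (AT4G40030) had 237 counts, HTR5 (AT4G40040) had 26 and the centromeric CENH3 (AT1G01370) had 17. These 3 have several models, so their counts do not give their level.

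Among H2A genes, the canonical HTA10 (AT1G51060) was the highest, with 492, 389, 453 and 521 CPM in cores 1 to 4. Core 2 was the lowest and core 4 the highest. HTA10 reached 553 ± 68.2 CPM per kb (SD, n = 4) and held 79.5 ± 0.582% of the canonical H2A level of 3 genes, a share that ranged only from 79.0% to 80.2% over the cores. HTA13 (AT3G20670) had 45.7, 37.4, 52.1 and 60.7 CPM and followed the same order of lowest and highest core. HTA1 (AT5G54640), named RAT5 for the need for it in root transformation by Agrobacterium, had 65.4, 57.3, 55.9 and 56.1 CPM, with core 1 apart from the other 3.

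The H2A variant genes with 1 model were lower than HTA10. By mean level per kb all of them were above the other canonical genes, HTA1 at 68.3 and HTA13 at 73.7 CPM per kb. H2A.Z, which marks the first nucleosomes of genes and is placed by the SWR1 complex, was represented by HTA9 (AT1G52740) and HTA11 (AT3G54560). HTA9 had 297, 295, 219 and 199 CPM in cores 1 to 4, or 300 ± 60.4 CPM per kb (SD, n = 4). Cores 1 and 2 were above cores 3 and 4. HTA11 had 114, 110, 106 and 101 CPM, or 101 ± 5.22 CPM per kb, in the same order with a narrow range. HTA9 held 74.4 ± 3.00% of the level of both.

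H2A.X carries the serine motif phosphorylated at DNA breaks. Its gene HTA5 (AT1G08880) had 196 ± 15.05 CPM per kb and HTA3 (AT1G54690) 98.3 ± 4.38 CPM per kb. HTA3 is the gene with the least unique sequence among the 33, with 57.1% of its 100-base stretches when both strands are searched. The rest match only AT1G54680 and AT1G07983, which cover 32.3% and 30.0% of its exons from the opposite strand. AT1G54680 itself had 1 count in all. H2A.W, the H2A of heterochromatin, was represented by HTA6 (AT5G59870) at 130 ± 13.3 and HTA7 (AT5G27670) at 95.8 ± 11.6 CPM per kb. For the H2A loci with several models, the summed counts were 6 for HTA2 (AT4G27230), 1 for HTA12 (AT5G02560), 3 for HTA8 (AT2G38810) and 40 for HTA4 (AT4G13570). HTB10 (AT5G02570) covers 34.7% of the exons of HTA12 from the opposite strand.

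The 9 main H2B genes summed to 1387 ± 75.4 CPM per kb (SD, n = 4), and the highest, HTB2 (AT5G22880), held 22.5 ± 1.66% of it. HTB2 had 290, 234, 289 and 247 CPM in cores 1 to 4, with cores 1 and 3 above cores 2 and 4. HTB9 (AT3G45980) held 20.2%, HTB1 (AT1G07790) 17.7%, HTB4 (AT5G59910) 15.1% and HTB11 (AT3G46030) 14.97%. HTB5 (AT2G37470) and HTB3 (AT2G28720) held 5.99% and 2.86%. AT3G07315 covers 34.3% of the exons of HTB9 from the opposite strand.

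HTB1 varied most among these, with 232, 172, 145 and 292 CPM, core 4 being 2.01 times core 3. HTB11 had 150, 138, 200 and 133 CPM and was high in core 3 alone. HTB4 had 284, 285, 261 and 249 CPM and varied least. The remaining H2B genes were low in most cores: HTB6 (AT3G53650), HTB7 (AT3G09480) and the H2B.8 gene HTB8 (AT1G08170), which acts in sperm. HTB7 had 3.22, 4.02, 2.30 and 1.13 CPM, and HTB8 had 2 counts in all.

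HTB6 was almost absent from 3 cores and present in the other. Its counts were 1, 6, 93 and 5 in cores 1 to 4, or 0.140, 0.893, 14.2 and 0.942 CPM, so that core 3 held 87.8% of the summed CPM. All of its 100-base stretches were unique, and no gene of the opposite strand covers it. The nearest loci with 1 model on either side did not show this pattern: AT3G53640 had 23, 15, 16 and 17 counts and AT3G53680 had 20, 13, 32 and 16. HTB6 was 1 of 10 genes with at least 80% of their summed CPM in core 3, among 12279 nuclear genes with 1 model and at least 100 counts in all. No gene had such a share in core 1 or core 2, and 1 had it in core 4. The other 9 of core 3, chosen after their values were seen, were AT5G56380, AT3G28160, AT3G43690, AT4G01595, PER64, AT5G46510, AT3G01345, PLC8 and AT3G42052, of which 3 are annotated as pseudogenes. The cause of this core 3 pattern was not tested.

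The linker histone H1.1 (AT1G06760) had 391, 395, 322 and 187 CPM in cores 1 to 4, or 279 ± 83.9 CPM per kb (SD, n = 4). Cores 1 and 2 were nearly equal, and core 2 was 2.12 times core 4. HTA9 and HTR1 also had higher values in cores 1 and 2 than in cores 3 and 4. The other tested members with this split were HTR3, HTA1, HTA3, HTA11, HTB3, HTB4, HTB9, AT2G28740, AT3G45930 and AT3G46320. Of these, HTA1, HTA3 and HTA11 did not pass the chi-square test of counting noise described below. The share of all tested genes with this split was not counted, so the split cannot be called a trait of histone genes. The meristem genes STM, with the values above, and KNAT1, with 153, 289, 97.1 and 109 CPM, also showed it. The epidermal gene PDF1, with 1141, 683, 1070 and 1093 CPM, and the boundary gene CUC2, with 3.91, 3.57, 4.90 and 5.09 CPM, did not, and these 4 shoot apex markers together ran from 1268 to 1491 CPM. The part of the tissue's makeup in the H1.1 values was not tested. AT1G04503 covers 41.8% of its exons from the opposite strand. The other H1 loci have several models, with 553 counts summed for H1.2 (AT2G30620) and 11 for the stress-linked H1.3 (AT2G18050).

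**Figure D2:**
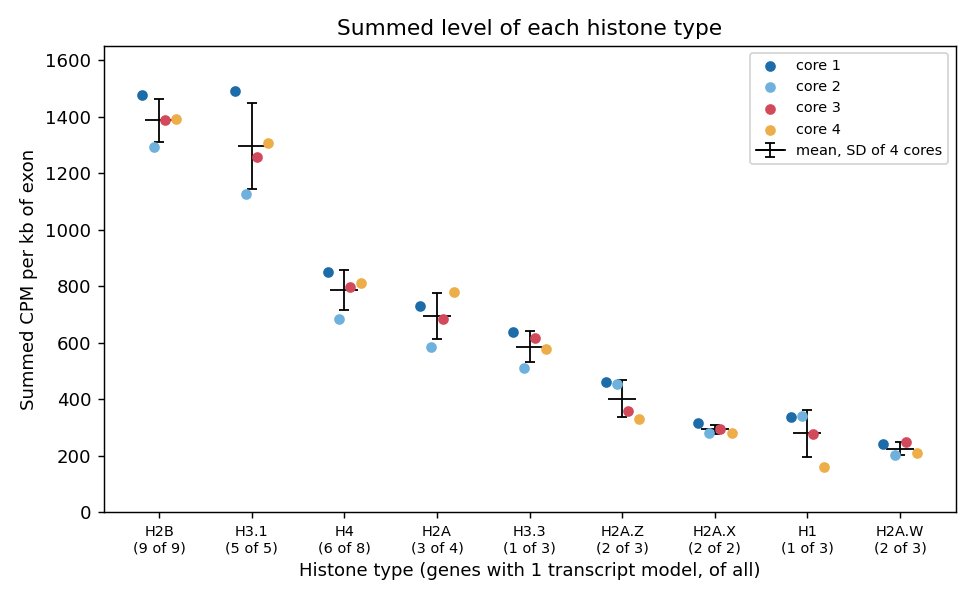
Summed level of each histone type in CPM per kb of exon (vertical axis from 0), with points for single cores and the mean with SD of 4 cores. Numbers under each type are genes with 1 transcript model of all its loci. H2B and H3.1 lie highest at 1387 and 1296 CPM per kb, and H1 has the widest relative range, 2.12 times from lowest to highest core.

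Replication-coupled histones were then compared with replacement histones within each core. The 23 replication-coupled genes with 1 model (H4, H3.1, canonical H2A and H2B) summed to 4552, 3690, 4128 and 4287 CPM per kb in cores 1 to 4. The 3 replacement genes (HTR8, HTA9 and HTA11) summed to 1099, 965 and 976 CPM per kb in cores 1 to 3 and 909 in core 4. The log2 ratio of the sums was 2.05, 1.93, 2.08 and 2.24, with a mean of 2.08 ± 0.13 (SD, n = 4), or 4.22-fold. It was highest in core 4 and lowest in core 2. The sum depends on the families and the number of genes on each side. H4 and H2B, with mean sums of 786 and 1387 CPM per kb, have no gene on the replacement side. With the median gene in place of the sum the log2 ratio was -0.85 ± 0.33. The median replication-coupled gene thus lay below the median replacement gene. HTR4, HTR5 and HTA8 are missing from the replacement side, as are HTA2 and both H4 loci with several models from the other.

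For H3 alone, the 5 H3.1 genes exceeded HTR8 by a log2 ratio of 1.22, 1.14, 1.03 and 1.18 in cores 1 to 4. The mean was 1.14 ± 0.08 (SD, n = 4), or 2.21-fold, and the range was narrow. HTR8 alone, however, was above the highest single H3.1 gene, HTR2, in each core on both scales. With the median H3.1 gene in place of the sum the log2 ratio was -1.21. For H2A, the 3 canonical genes exceeded HTA9 and HTA11 together by a log2 ratio of 0.67, 0.37, 0.92 and 1.23, with a mean of 0.80 ± 0.37. With medians it was -1.35. Cores 3 and 4 had the higher ratios. Both sides of the ratio moved: canonical H2A was at 731, 587, 684 and 778 CPM per kb in cores 1 to 4, and H2A.Z at 460, 454, 360 and 331.

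The genes that make and deposit histones were read from lists. Of 19 S phase genes, 12 have 1 model, and these summed to 701, 614, 865 and 878 CPM in cores 1 to 4, higher in cores 3 and 4. The highest per kb were TSO2, a ribonucleotide reductase subunit, at 118 CPM per kb and PCNA2, the sliding clamp, at 79.5, and the lowest POL2A, a leading-strand polymerase, at 2.57 and ICU2, the catalytic subunit of DNA polymerase alpha, at 3.02. Opposite-strand genes cover 23.6% of the exons of PCNA2 and 24.4% of those of POL2A. The 9 G2/M genes summed to 391, 337, 457 and 447 CPM, with CYCB1;2 at 59.7 and KNOLLE at 47.0 CPM per kb highest and CYCB2;1 at 4.71 and CYCA1;1 at 14.6 lowest. Opposite-strand genes cover 33.5% of the exons of KNOLLE. The S phase and G2/M sums were thus lowest in core 2 and not highest in core 1. Core 2 was the lowest for 12 tested histone genes, against 27.4% of all genes tested. Core 1 was the highest for 15, against 20.5%. Single list genes differed from the sums: MCM3, MCM6, ICU2, POL2A and TSK were lowest in core 1, and CDKB1;1 and CDKB2;2 in core 3. PCNA2, CDKB2;2 and CYCB2;1 were highest in core 1. The part of the share of dividing cells in the histone values was not tested.

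The summed level of histone chaperones and exchange factors differed less from core to core. Of 19, 11 have 1 model, and these summed to 661, 674, 662 and 665 CPM. NRP2, an H2A–H2B chaperone, at 94.2 CPM per kb and MSI1, the WD40 subunit of the H3–H4 chaperone CAF-1, at 77.2 were the highest, and PIE1, the SWR1 ATPase that places H2A.Z, at 3.89 and KNL2, needed for loading of CENH3, at 5.17 were the lowest. Single genes behind the even sum moved in different directions. NRP2 had 139, 140, 96.2 and 118 CPM in cores 1 to 4, and SPT16, also on this list, had 69.2, 88.3, 108 and 82.7 CPM. This pair was chosen after its values were seen. Genes of the SWR1 complex did not move together: PIE1 had 19.2, 24.9, 36.6 and 27.7 CPM, lower in cores 1 and 2, where HTA9 was higher. The subunit genes ARP6, with 41.5, 38.3, 30.2 and 35.8 CPM, and SWC6, with 17.2, 15.6, 15.2 and 12.8 CPM, were higher in cores 1 and 2. Both were chosen after their values were seen. In the chi-square test of counting noise described below, SWC6 did not pass, with an adjusted p of 0.331. PIE1 and ARP6 passed that chi-square test, with adjusted p of 4.38e-08 and 0.0099. Of 5 further histone genes outside the set, HTR11 had 2.28 ± 0.246 CPM, and HTR6, HTR14, HTR15 and HTB10 were under 1 CPM in every core. Opposite-strand genes cover 25.3% of HTR15 and the whole of HTB10.

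Variation between the cores was tested against counting noise with a chi-square test per gene, adjusted by the Benjamini-Hochberg method over 12771 nuclear genes. This filter asks for a minimum CPM in every core and kept 29 of the 33 genes, leaving out HTR10, HTB6, HTB7 and HTB8. Of the 29, 26 varied beyond counting noise. The background was 64.2% of all genes tested, and 82.2% of the genes at least as abundant as the lowest tested histone gene, HTR3, whose mean was 35.6 CPM. The second background was chosen after the data were seen. The 26 were 89.7% of the 29, near the share among genes of such abundance. The 3 that did not pass were HTA1 with an adjusted p of 0.0970, HTA11 with 0.205 and HTA3 with 0.424 in the chi-square test. H1.1, HTB1 and HTR1 had the smallest chi-square adjusted p among the members, at 3.55e-105, 5.20e-78 and 5.10e-53. On the lists, 12 of 12 S phase genes, 6 of 9 G2/M genes and 7 of 11 chaperones varied beyond counting noise in the same test. Without core 3 these counts were 7, 3 and 7, while the share of all genes tested fell from 64.2% to 49.7%.

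The spread was mostly small. The median coefficient of variation of the 29 genes was 13.8% against 16.6% for all genes tested, and in 19 of them the highest core was under 1.5 times the lowest, as in 55.5% of all genes. In 2, HTB1 and H1.1, it was at least 2 times, as in 15.7% of all genes. None of these measures is adjusted for level. Only 5720 of the 12771 genes tested were at least as abundant as the lowest of the 29. In edgeR's quasi-likelihood test, which asks whether a gene varies beyond genes of like level, the background called was 0.0% of the 12771 genes, with 677 at an unadjusted p under 0.05. None of the 29 histone genes was called, and 0 had an unadjusted p under 0.05. The test has low power with so few libraries, so the absence of calls does not show that no gene varied more than others. The median ratio of a gene's spread to that of genes of like level was 0.988 for the 29 and 0.923 for all genes tested. H1.1 with 0.0648 and HTB1 with 0.0758 came nearest by unadjusted p in this edgeR test.

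**Figure D3:**
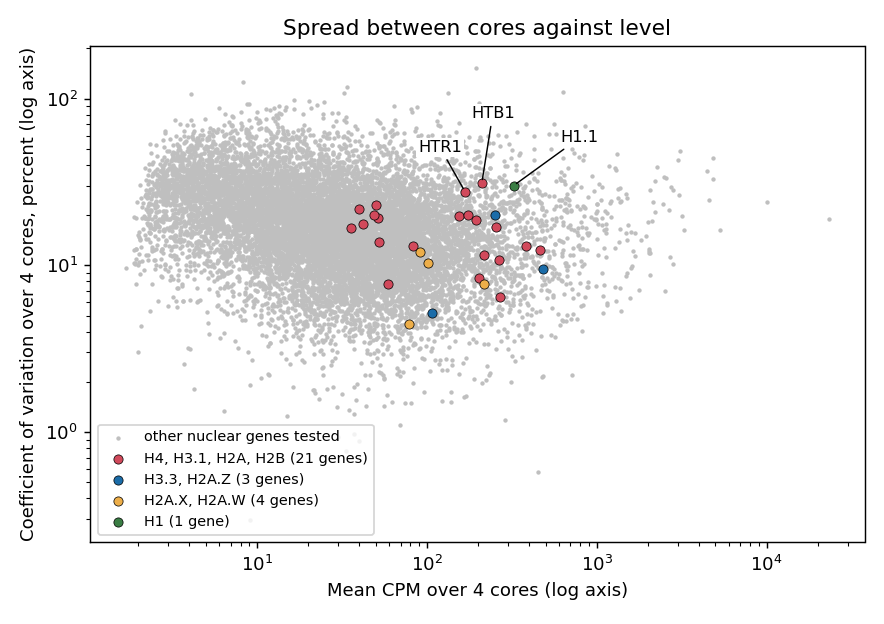
Coefficient of variation over the 4 cores in percent against mean CPM, both on log axes, for the 29 tested histone genes (coloured by class) and the other nuclear genes tested (grey). HTB1, H1.1 and HTR1 have the widest spread among the histone genes.

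The cores did not share the extremes evenly. Core 1 was the highest core for 15 of the 29 genes and the lowest for 0, while it was highest for 20.5% and lowest for 22.3% of all genes tested. Core 2 was the lowest for 12 of the 29, against 27.4% of all genes, and the highest for 2, against 28.4%. Core 4 was the lowest for 10 and the highest for 6, against 20.9% and 21.8% of all genes. Core 3 was the lowest for 7 and the highest for 6, against 29.4% and 29.3%. Several patterns occurred within 1 type. Among H4 genes, AT5G59690 and AT5G59970 were high in core 3 and low in core 2, whereas AT3G45930, AT2G28740 and AT3G46320 were high in core 1 and lower in cores 3 and 4.

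**Figure D4:**
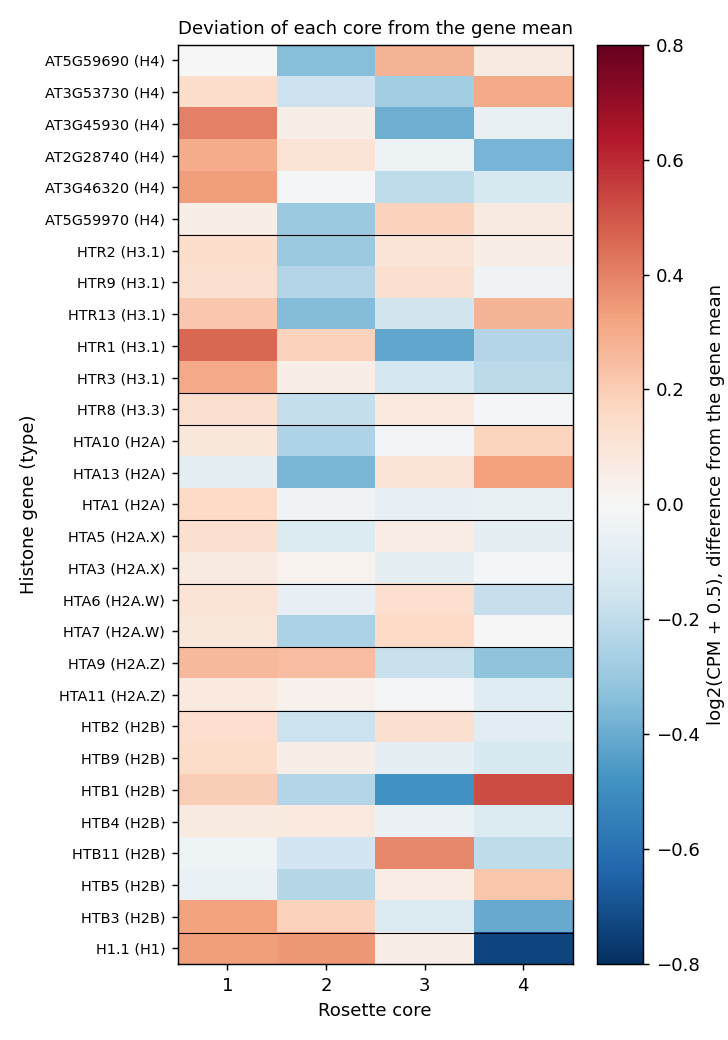
Difference of each core from the gene mean in log2(CPM + 0.5) for the 29 tested histone genes, from low (blue) to high (red). Core 1 has no lowest value, and H1.1 in core 4 and HTB1 in cores 3 and 4 deviate most.

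Promoters of the members were read from the reference genome to see whether genes that are made together share motifs. Known elements of plant histone promoters were searched on both strands of the 250 bases before the annotated start: the octamer CGCGGATC, the hexamer ACGTCA and the E2F sites TTTCCCGC, TTTCGCGC, TTTGCCGC and TTTGGCGC. Only exact matches were counted, so a promoter without a match can still hold a near match. No match of a motif overlapped a match of another. The octamer was found in 10 of the 44 promoters, against 37 of 27443 promoters of protein-coding genes, or 0.135%. The promoters of the members were not removed from this background. The hexamer was found in 11 of 44, against 7.69% of all promoters, and an E2F site in 3 of 44, against 1.41%. A match is a description of the sequence and not evidence of binding.

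The motifs were divided by type. The octamer was in 3 of 5 H3.1 promoters (HTR2, HTR9 and HTR1), 2 of 4 canonical H2A promoters (HTA10 and HTA13), 2 of 8 H4 promoters (AT5G59690 and AT1G07660) and 0 of 9 H2B promoters. It was also found in those of HTR5, HTA6 and H1.1. The hexamer was in 7 of 9 H2B promoters and 0 of 8 H4 promoters. It also occurred in HTR3, HTR9, HTR8 and HTR10, the last of which had 0 counts. E2F sites were found at AT3G45930, AT3G46320 and HTB2, and 22 members held none of the motifs. Of genes with 1 model, the 8 with the octamer had a median of 277 CPM per kb and the 25 without it 95.8. The 11 with the hexamer had a median of 208 and the 22 without it 115.5 CPM per kb. The 3 with an E2F site had a median of 72.7 and the 30 without it 151 CPM per kb. The levels of genes with the octamer ran from 73.7 to 553 CPM per kb, and HTR8, the highest gene at 586, lacks it.

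**Figure D5:**
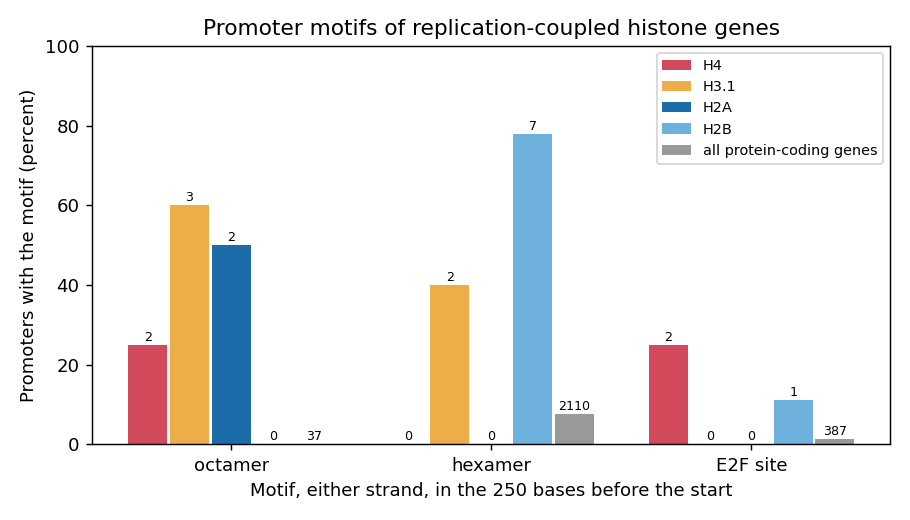
Share of promoters that hold each motif in the 250 bases before the start, in percent, for the 4 replication-coupled types and for all protein-coding genes, with the number of promoters above each bar. The octamer is in 3 of 5 H3.1 and 0 of 9 H2B promoters, and the hexamer in 7 of 9 H2B promoters.

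The promoters of the 2 highest and 2 lowest H4 genes are shown because these encode the same protein at levels from 57.8 to 345 CPM per kb. They are from TAIR10.1, printed 5′ to 3′ on the strand of the gene, with motif matches in capitals: AT5G59690 (chr5:24051224-24051473, plus strand), AT3G53730 (chr3:19913516-19913765, minus strand), AT3G46320 (chr3:17020429-17020678, minus strand) and AT5G59970 (chr5:24146730-24146979, minus strand).
AT5G59690: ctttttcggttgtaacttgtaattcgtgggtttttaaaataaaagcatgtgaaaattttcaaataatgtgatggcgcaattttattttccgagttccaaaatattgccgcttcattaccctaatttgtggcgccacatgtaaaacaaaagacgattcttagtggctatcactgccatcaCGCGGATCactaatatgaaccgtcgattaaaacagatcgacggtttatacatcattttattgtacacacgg
AT3G53730: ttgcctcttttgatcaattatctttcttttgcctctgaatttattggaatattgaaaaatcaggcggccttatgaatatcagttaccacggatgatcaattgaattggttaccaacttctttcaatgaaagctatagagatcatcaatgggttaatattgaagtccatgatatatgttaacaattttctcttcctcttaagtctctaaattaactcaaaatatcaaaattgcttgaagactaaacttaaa
AT3G46320: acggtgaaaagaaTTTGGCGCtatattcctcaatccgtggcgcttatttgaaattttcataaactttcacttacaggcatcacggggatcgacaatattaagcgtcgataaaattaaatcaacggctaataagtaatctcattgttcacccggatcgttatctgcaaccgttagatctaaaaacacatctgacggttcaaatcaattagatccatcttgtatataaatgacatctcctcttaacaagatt
AT5G59970: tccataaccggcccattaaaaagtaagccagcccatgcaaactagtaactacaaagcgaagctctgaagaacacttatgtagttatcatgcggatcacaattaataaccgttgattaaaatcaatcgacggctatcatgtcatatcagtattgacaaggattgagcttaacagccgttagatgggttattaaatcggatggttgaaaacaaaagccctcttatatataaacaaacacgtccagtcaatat
AT5G59690, the highest, holds 1 octamer, and AT3G53730, the next, holds no match. AT3G46320 holds an E2F site. AT5G59970, the lowest, holds no exact match. Stretches that differ from the octamer by 1 base, cggggatc in AT3G46320 and tgcggatc in AT5G59970, were not counted.

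The promoters of HTR2, HTA10 and HTB2, the highest genes of H3.1, H2A and H2B, are shown as examples of promoters with 2 matches each and were chosen after their values were seen. They lie at chr1:2972335-2972584, minus strand, chr1:18926561-18926810, plus strand, and chr5:7652715-7652964, minus strand.
HTR2: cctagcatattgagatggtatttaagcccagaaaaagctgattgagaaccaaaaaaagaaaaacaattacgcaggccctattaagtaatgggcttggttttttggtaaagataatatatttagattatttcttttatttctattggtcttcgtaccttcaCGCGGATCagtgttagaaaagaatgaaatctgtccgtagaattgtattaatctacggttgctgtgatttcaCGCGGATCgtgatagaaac
HTA10: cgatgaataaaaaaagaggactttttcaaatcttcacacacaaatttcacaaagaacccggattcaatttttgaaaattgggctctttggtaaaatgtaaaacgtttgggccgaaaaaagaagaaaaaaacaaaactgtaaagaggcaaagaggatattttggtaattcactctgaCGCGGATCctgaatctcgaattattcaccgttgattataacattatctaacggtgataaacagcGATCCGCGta
HTB2: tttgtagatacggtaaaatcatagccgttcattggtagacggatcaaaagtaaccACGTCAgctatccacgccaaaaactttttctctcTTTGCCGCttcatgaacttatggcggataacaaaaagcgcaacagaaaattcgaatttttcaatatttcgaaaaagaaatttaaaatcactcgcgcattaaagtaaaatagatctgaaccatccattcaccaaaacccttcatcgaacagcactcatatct
HTR2 and HTA10 each hold 2 octamers, with 1 of the 2 in HTA10 on the opposite strand. HTB2 holds a hexamer and an E2F site and no octamer.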

How the data were processed

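RNA of 4 untreated rosette cores was measured by strand-specific total RNA sequencing on an Ion Proton, per the labels' protocols. The authors deposited raw counts, whole numbers with 1 row per transcript model and no normalization. Torrent Suite 4.0.2, HTSeq and the TAIR10 build were used, per the submitters' processing notes. Not given in the sources used here are the aligner and the settings of HTSeq.

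The models of each locus were summed. CPM were computed on nuclear loci with 1 model (26516, of which 20912 protein-coding) after TMM scaling with edgeR 4.0.16 in R 4.3.3. The restriction to 1 model follows the rule for the set. Gene lengths, names and coordinates (1-based) come from the NCBI annotation of TAIR10.1, in which 31912 loci matched. Genes passed edgeR's filter if their CPM in every library reached that of a count of 10 at the median library size. Departure of each gene's counts from Poisson noise was tested by chi-square, and spread beyond genes of like level by the robust quasi-likelihood dispersion of edgeR against its trend, one-sided, both adjusted by Benjamini-Hochberg over all 12771 genes with a threshold of 0.05. Sums, shares and ratios over members have no test. Counts of unique 100-base stretches were made among reference transcripts read on both strands, so overlap with an opposite-strand gene lowers them. PCR reads without molecular identifiers are not independent molecules, so floors of 3 counts cover counting error only. DESeq2 1.42.0 gave alternative size factors. Python 3.11.15, pandas 2.3.3 and Biopython 1.88 were used.

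The members and all lists were chosen with earlier results of these data known. All 44 members are named, with the 2 highest and 2 lowest of each list of genes that make or deposit histones per kb of exon, and H4 promoters by the same rule. Protein sequences are not printed.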

Additional observations from a re-analysis of the deposited data

Results flagged for a closer look

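In each of 36 sets of 4 values, the 33 genes with 1 model and the 3 ratios, the distance of the highest or lowest core from its nearest neighbour was divided by the whole range and compared with Dixon's critical value. Chance flags about 1 in 20 such sets, and 2 of the 36 were flagged.

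HTB6 had 14.2 CPM in core 3 against 0.140, 0.893 and 0.942 CPM in cores 1, 2 and 4, and the gap made up 0.943 of the range. Without a filter on low counts it varied beyond counting noise, with a chi-square adjusted p of 3.11e-46, with 93 of its counts in core 3. In edgeR's quasi-likelihood test with no filter beyond 10 counts, which called 0 genes, its unadjusted p was 0.00252 and its adjusted p 0.569.

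HTA1 had 65.4 CPM in core 1 against 55.9 to 57.3 CPM in cores 2 to 4, and the gap made up 0.849 of the range. This gap did not pass the test of counting noise, with a chi-square adjusted p of 0.0970.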

How the results depend on the processing

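With the median gene in place of the sum, all 3 log2 ratios turned negative: -0.85 for replication-coupled over replacement histones, -1.21 for H3.1 over H3.3 and -1.35 for canonical H2A over H2A.Z. The ratio of H3.1 to H3.3 fell from 1.14 to 1.02 with no length term or with coding length. The number of S phase genes varying beyond counting noise, 12 with all cores, ran from 7 to 12 when each replicate was left out, and that of G2/M genes, 6 with all cores, from 3 to 5; both were lowest without replicate 3. The share of all genes tested that varied beyond counting noise was 56.9%, 52.5%, 49.7% and 58.3% without replicates 1 to 4, against 64.2% with all. These list counts under other settings were added after seeing the data. Of 29 histone genes, 26 varied beyond counting noise, and 23 to 26 of 29 or 30 did so when a replicate was left out, 28 of 32 with no filter beyond 1 count and 27 of 31 with all loci. The count over all genes ran from 6468 of 13010 without replicate 3 to 8510 of 22869 with no filter beyond 1 count. EdgeR's quasi-likelihood test, which has low power here, called 0 genes in every setting. These were all cores, DESeq2 size factors, no filter beyond 10 counts, not robust and without each replicate. Leaving out a replicate moved the log2 ratios to between 2.02 and 2.12 for replication-coupled over replacement histones, 1.12 to 1.18 for H3.1 over H3.3 and 0.65 to 0.94 for H2A over H2A.Z. No paired analysis was possible because there is 1 group. Loci with several models cannot be given a level here, which leaves the replacement side with 3 genes. Opposite-strand genes lie over HTA3, HTB9 and H1.1, and whether reads from that strand enter their counts was not tested.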
